A study of Mus musculus with 144 samples.

Results

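Control livers of mice on reverse-phase feeding were compared at zeitgeber time (ZT, hours after lights on) 22 and ZT10, points 12 h apart. The 6 libraries were those of the deposited reverse-phase table whose columns name the control group at these times, 3 per time, out of 144 libraries in the series. Both groups came from male C57BL/6J mice on normal chow with the genotype label WT. Their columns are named GFP, against CRE for the mice labelled as double knockouts of REV-ERB alpha and beta, in adult hepatocytes by the study's design text, so GFP is read here as the control of CRE. In reverse-phase feeding mice are given food in their rest phase (the labels give neither the hours of food access, nor the mice's age, nor how many mice made a library). Whole liver was sequenced at 8 times in both genotypes, under this schedule and under ad libitum feeding. The same pair of times in ad libitum controls (6 libraries) and in the reverse-phase knockouts (6 libraries) serves below as reference, and none of those libraries is shared with the 6 described. The labels do not say that replicates were separate mice, so p-values measure the spread between libraries, which may be technical.

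The circadian clock of liver cells is a transcriptional loop. BMAL1 (gene Arntl) with CLOCK or NPAS2 activates genes through E-boxes, among them the period, cryptochrome and REV-ERB genes, and the REV-ERB receptors in turn repress Arntl and other genes that ROR receptors activate through ROR elements. Feeding time is a strong timing cue for the liver, and many genes of lipid, cholesterol and glucose metabolism follow food and insulin as well as the clock.

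The 6 libraries held 14151172 to 23611272 counts each over 1 transcript per gene. Hepatocyte markers, Alb among them, summed to 128447 to 178292 CPM (counts scaled to library size) at ZT10 and 144298 to 163698 at ZT22, so the tissue label held in each library. The 16 endothelial markers summed to 314 to 325 CPM at ZT10 and 198 to 287 CPM at ZT22, and 8 cholangiocyte markers to 57.9 to 78.0 and 40.1 to 46.1 CPM, both without overlap (exact two-sided permutation p = 0.1, the smallest that 3 against 3 allows). Of 8 cholangiocyte markers tested, only Krt19 was called, lower (-2.48 log2, adjusted p = 0.0108 in edgeR's test described next). Of 10 stellate cell markers tested, only Lrat was called, lower (-1.14 log2, adjusted p = 0.00326). No endothelial marker or member of another marker list was called, and 2.63% of all genes tested were called lower. Members of the cholangiocyte, stellate and endothelial lists also rose, by up to 0.53, 0.63 and 1.32 log2. No listed endothelial or cholangiocyte gene was at 0 in all 6 libraries. The 12 lymphocyte markers summed to 3.62 to 4.23 CPM at ZT10 and 4.58 to 5.67 at ZT22. The sums overlapped for Kupffer cell (exact permutation p = 0.6), stellate cell (0.4), neutrophil and monocyte (0.8) and erythroid markers (0.9), and 1 ZT10 library stood apart in the last, at 2181 CPM against 320 and 399 in the others and 399 to 644 at ZT22. The ribosomal transcript Rn45s took 0.203% to 0.279% of counts at ZT10 and 0.325% to 0.481% at ZT22. In whole liver, fewer cells of a type and less RNA per cell cannot be told apart, and the part of these shifts in the results below was not tested.

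Of 13519 genes tested, 822 (6.08%) differed between ZT22 and ZT10 at an adjusted p under 0.05 (edgeR's quasi-likelihood test with Benjamini-Hochberg adjustment over all genes tested, called below). There were 466 genes higher at ZT22 (3.45%) and 356 lower (2.63%), with a median log2 difference over all tested genes of 0.01. Among them, 124 rises and 142 falls were at least 2-fold, and 26 rises and 34 falls at least 4-fold. The count fell to 518 without ZT10 library 1, to 517 without ZT10 library 3 and to 526 without ZT22 library 2, and was 219 when only these 6 libraries were fitted in place of all 24 controls of the schedule. With the 6 alone, 31 of 77 called genes that were followed lost their call, Dbp (adjusted p = 0.0527) and Per3 (0.0655) among them. Over the 8 times, 278 of the 466 rising genes had their highest mean at ZT22 itself, 88 at ZT1 and 71 at ZT19, while the 356 falling genes were highest at ZT7 (120), ZT10 (109) or ZT13 (69).

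**Figure D1:**
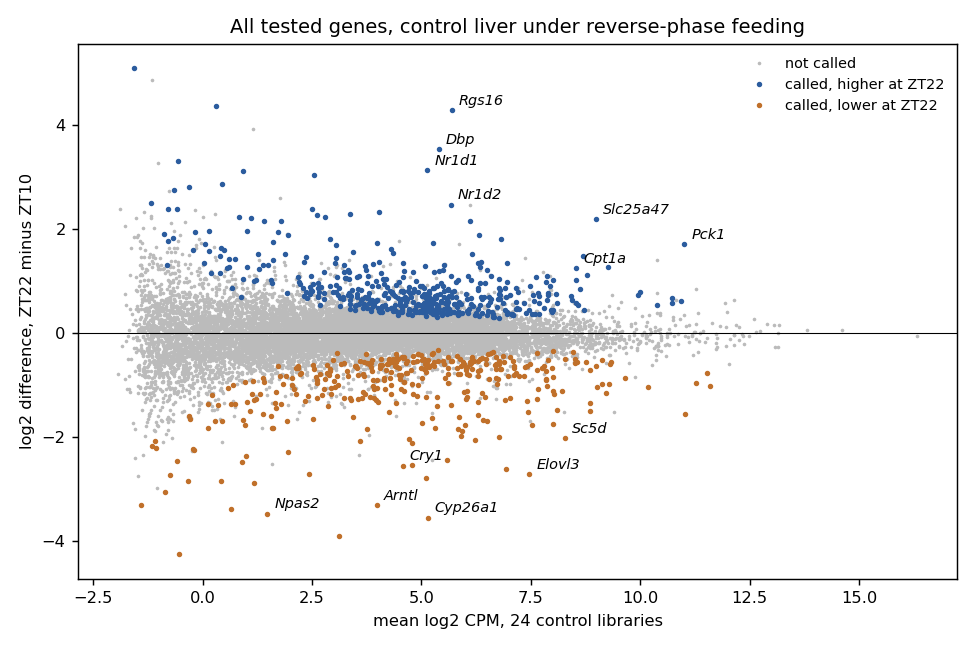
Log2 difference between ZT22 and ZT10 (vertical axis) against mean log2 CPM over the 24 control libraries of the schedule (horizontal axis), 1 point per tested gene, with called rises in blue and called falls in orange. The 466 rises and 356 falls run from low to high expression, with Rgs16, Dbp and Nr1d1 far above 0 and Npas2, Cyp26a1 and Arntl far below.

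Of the 19 core clock genes, all of them tested, 12 were called, 7 higher and 5 lower at ZT22. The promoters below belong to the called clock genes with the largest rises and falls that hold a searched motif in the window from 250 bases before to 50 bases after an annotated start (RefSeq, GRCm38.p6, gene strand). The motifs were the E-box CACGTG, the D-box TTATGNAA and the ROR element NNAGGTCA, each searched on both strands; capitals mark a match, and for the ROR element only its fixed letters. They show where the 2 kinds of clock element named above stand beside genes that moved in opposite directions. Ciart, Nr1d2 and Bhlhe41 rose, and Arntl, Cry1 and Nfil3 fell.
Ciart, chr3:95882179-95882478, minus strand: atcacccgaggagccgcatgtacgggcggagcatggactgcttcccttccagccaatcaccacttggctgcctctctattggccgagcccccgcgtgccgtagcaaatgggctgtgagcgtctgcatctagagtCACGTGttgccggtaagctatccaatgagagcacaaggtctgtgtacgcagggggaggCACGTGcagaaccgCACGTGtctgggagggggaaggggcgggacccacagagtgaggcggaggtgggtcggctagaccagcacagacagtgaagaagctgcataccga
Nr1d2, chr14:18239057-18239356, minus strand: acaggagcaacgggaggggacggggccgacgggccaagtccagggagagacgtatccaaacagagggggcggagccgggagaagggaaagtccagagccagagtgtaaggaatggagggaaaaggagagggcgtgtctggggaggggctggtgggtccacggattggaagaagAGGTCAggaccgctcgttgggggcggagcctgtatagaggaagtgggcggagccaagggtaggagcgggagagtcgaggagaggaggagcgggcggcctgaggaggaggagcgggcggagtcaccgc
Bhlhe41, chr6:145865371-145865670, minus strand: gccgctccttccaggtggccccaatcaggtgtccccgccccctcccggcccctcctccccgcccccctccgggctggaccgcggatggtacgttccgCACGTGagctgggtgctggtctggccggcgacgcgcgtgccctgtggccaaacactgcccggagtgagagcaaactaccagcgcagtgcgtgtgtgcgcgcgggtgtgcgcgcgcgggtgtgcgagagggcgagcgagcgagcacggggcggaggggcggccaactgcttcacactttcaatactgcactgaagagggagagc
Arntl, chr7:113207261-113207560, plus strand: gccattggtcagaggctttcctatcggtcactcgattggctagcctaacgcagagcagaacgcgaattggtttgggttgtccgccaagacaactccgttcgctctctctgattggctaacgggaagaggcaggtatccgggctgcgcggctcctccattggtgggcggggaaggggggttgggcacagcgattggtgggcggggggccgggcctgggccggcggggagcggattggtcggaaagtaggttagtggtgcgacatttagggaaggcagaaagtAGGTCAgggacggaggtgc
Cry1, chr10:85185005-85185304, minus strand: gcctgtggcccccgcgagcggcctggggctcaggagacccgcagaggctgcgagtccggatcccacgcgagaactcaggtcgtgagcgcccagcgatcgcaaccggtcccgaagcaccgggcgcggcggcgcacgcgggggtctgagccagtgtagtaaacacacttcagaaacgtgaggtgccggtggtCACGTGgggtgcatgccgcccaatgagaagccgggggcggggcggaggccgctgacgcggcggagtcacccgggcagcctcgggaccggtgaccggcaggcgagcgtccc
Nfil3, chr13:52980990-52981289, minus strand: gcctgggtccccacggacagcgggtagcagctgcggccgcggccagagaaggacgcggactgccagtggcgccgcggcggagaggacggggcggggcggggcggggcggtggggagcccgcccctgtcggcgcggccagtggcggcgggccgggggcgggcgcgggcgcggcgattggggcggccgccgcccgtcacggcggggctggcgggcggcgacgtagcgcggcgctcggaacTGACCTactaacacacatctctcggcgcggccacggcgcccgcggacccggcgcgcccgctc

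Ciart held 3 E-boxes, Bhlhe41 and Cry1 held 1 each, and Nr1d2, Arntl (at the second of its listed starts) and Nfil3 held 1 ROR element each. Of 32851 promoter windows of this length in the table, 7.15% held the E-box, 3.38% the D-box and 16.2% the ROR element. E-boxes thus stood beside both rising genes (Ciart, Bhlhe41) and a falling one (Cry1), and ROR elements beside both falling genes and the rising Nr1d2. None of the searched letters lay in these windows of Dbp, Nr1d1 or Npas2. A match is a description of the sequence, and binding was not measured here.

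Arntl and Npas2, activators of the loop, were low at ZT22. Arntl (NM_007489, mm9 chr7:120350979-120457640) read 29.8, 36.5 and 28.1 normalised CPM at ZT10 and 3.0, 5.31 and 1.48 at ZT22. Npas2, a partner of BMAL1 that can stand in for CLOCK, read 4.54, 6.78 and 5.08 CPM at ZT10 and 0.465, 0.291 and 0.647 at ZT22. All ZT10 libraries lay far above all ZT22 libraries for both genes, and over the 8 times Arntl had its highest mean at ZT10. The log2 difference was -3.32 ± 0.35 for Arntl and -3.48 ± 0.37 for Npas2 (3 libraries per time), both with an adjusted p of 6.65e-06 in edgeR. Here and below, ± gives an SE worked back from edgeR's F value, whose spread is estimated over all libraries fitted. Clock itself overlapped between the times, from 41.6 to 62.0 CPM at ZT10 and from 25.9 to 44.3 at ZT22 (log2 difference -0.45, adjusted p = 0.195). Rora, a receptor that activates through ROR elements, overlapped as well (log2 difference 0.14, adjusted p = 0.749).

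The REV-ERB repressors were high at ZT22. Nr1d1 (REV-ERB alpha, NM_145434, mm9 chr11:98629246-98636691) read 11.3, 3.76 and 7.16 CPM at ZT10 and 46.3, 84.2 and 64.9 at ZT22, a log2 difference of 3.14 ± 0.34 (edgeR adjusted p = 1.17e-05). Nr1d2 (REV-ERB beta) was the least variable of the clock calls, at 17.3, 17.9 and 18.8 CPM at ZT10 and 95.1, 102 and 102 at ZT22, a 5.53-fold rise (log2 difference 2.47 ± 0.13, adjusted p = 8.48e-11). Neither gene's groups overlapped, though the share of all genes without overlap was not counted. Nr1d1 had its highest mean of the 8 times at ZT19 and its lowest at ZT10, so the comparison spans nearly its whole range.

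Among the other repressors of the loop, the cryptochrome and period genes did not move together. Cry1, the cryptochrome with a ROR-driven late phase in the usual liver cycle, fell from 52.0, 35.2 and 45.0 CPM to 10.7, 6.40 and 5.18 (log2 difference -2.56 ± 0.24, adjusted p = 1.20e-06). Cry2 read 30.8 to 32.8 CPM at ZT10 and 39.8 to 42.6 at ZT22 without overlap, but missed the threshold (log2 difference 0.35, adjusted p = 0.0824). Per3 rose from 10.4, 10.4 and 10.5 CPM to 50.9, 17.4 and 27.6 (log2 difference 1.63 ± 0.32, adjusted p = 0.00392), whereas Per1 (0.53, adjusted p = 0.332) and Per2 (0.15, adjusted p = 0.820) overlapped between the times. Ciart (CHRONO), a repressor of BMAL1 and CLOCK, rose from 2.91, 0.604 and 2.08 CPM to 11.6, 14.3 and 20.1 (log2 difference 3.05 ± 0.50, adjusted p = 0.000841). Bhlhe41 (DEC2) rose from 0.929 to 1.38 CPM to 2.84 to 9.43 CPM (log2 difference 2.16, adjusted p = 0.0278). That call was lost without any 1 of the ZT10 libraries and without ZT22 library 3, with log2 differences of 1.36 to 2.43 and an adjusted p of up to 0.189. Bhlhe40 (DEC1) had a log2 difference of 0.47 and an adjusted p of 0.286.

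The D-box family split between activators and repressor. Dbp read 15.1, 3.48 and 9.70 CPM at ZT10 and 113, 66.0 and 148 at ZT22, the largest rise of the list (log2 difference 3.54 ± 0.48, adjusted p = 0.000200). Tef rose from 68.0 to 78.3 CPM to 153 to 228 CPM (log2 difference 1.35 ± 0.17, adjusted p = 5.55e-05), and the related Hlf overlapped (0.30, adjusted p = 0.352). Nfil3 (E4BP4), the repressor at the same elements, fell from 41.2 to 55.8 CPM to 12.1 to 21.5 CPM (log2 difference -1.64 ± 0.22, adjusted p = 0.000116).

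**Figure D2:**
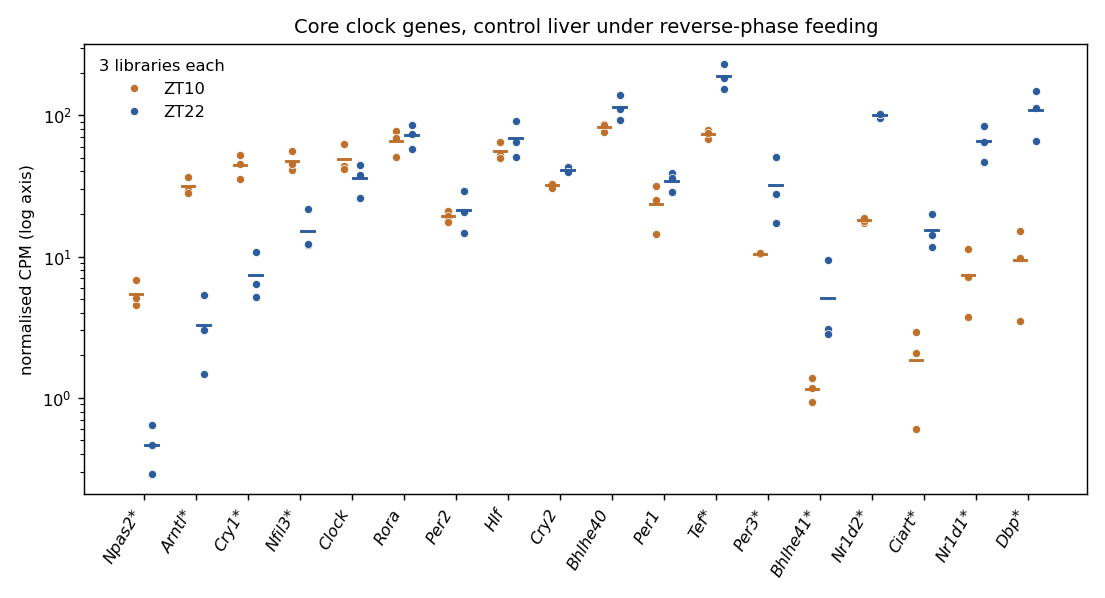
Normalised CPM on a log axis of 18 core clock genes in each of the 6 libraries (points) with group means (bars), ZT10 in orange and ZT22 in blue, ordered by the log2 difference; an asterisk marks an adjusted p under 0.05. Npas2, Arntl, Cry1 and Nfil3 stand lower at ZT22, 7 genes from Tef to Dbp stand higher, and the middle of the order holds the 7 genes not called.

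Of the 27 pathway lists, cholesterol synthesis and uptake had the largest share of members called. Of its 25 members, 17 fell, none rose, and the list median was -1.33 log2 against 0.01 over all genes. Over all tested genes, 3.45% were called higher and 2.63% lower, the shares to set beside this and each later list. Sqle (squalene epoxidase) read 91.6, 123 and 97.3 CPM at ZT10 and 31.3, 15.9 and 26.7 at ZT22 (log2 difference -2.07 ± 0.30, edgeR adjusted p = 0.000284). Mvd, of the mevalonate steps, fell from 19.3, 40.3 and 35.1 CPM to 8.76, 4.66 and 8.0 (by 2.12 log2, adjusted p = 0.000882). Sc5d, a late sterol desaturase, fell from 464, 529 and 670 CPM to 136, 87.6 and 184 (by 2.03 log2, adjusted p = 0.00272). The groups did not overlap for any of these 3 genes, and ZT22 library 2 was the lowest for each. They were named for their large called falls, so the lack of overlap is no separate support. Insig1, a sterol-induced brake on the pathway, was among the falls. Between 16 and 17 members stayed called lower whichever library was left out. Hmgcs1 fell by 2.36 log2 on its kept transcript, but that gene is listed at 2 genomic copies in the table, so its counts may be split.

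Of 22 genes of fatty acid and triglyceride synthesis, 7 fell and 1 rose (median -0.59). Acly, which makes cytosolic acetyl-CoA, read 299, 351 and 382 CPM at ZT10 and 126, 90.9 and 151 at ZT22 (log2 difference -1.49 ± 0.24, adjusted p = 0.000468). Srebf1, the lipogenic transcription factor, fell from 250 to 290 CPM to 75.1 to 146 CPM (by 1.19 log2, adjusted p = 0.00552) and Acss2, an acetyl-CoA synthetase, by 1.27 (adjusted p = 0.00701). Fasn, fatty acid synthase, read 289, 391 and 498 CPM at ZT10 and 198, 109 and 224 at ZT22 (-1.15, adjusted p = 0.0166), a call lost without ZT10 library 3 or ZT22 library 2 (adjusted p up to 0.0884). Without ZT10 library 3, 4 members of the list were called lower. The 1 riser was Lpin2, a phosphatidate phosphatase.

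Of 31 genes of fatty acid oxidation and ketogenesis, 6 rose and 1 fell (median 0.17), the rises being Fgf21, Cidec, Cpt1a, Angptl4, Ppara and Plin2. Cpt1a, the gate for fatty acids into mitochondria, read 241, 262 and 275 CPM at ZT10 and 575, 710 and 565 at ZT22 (log2 difference 1.25 ± 0.14, adjusted p = 7.57e-06). Cidec and Plin2 are lipid droplet proteins and do not burn fat; Cidec rose from 1.58 to 1.88 CPM to 4.70 to 7.20 CPM (log2 difference 1.76, adjusted p = 0.000882). The fasting hormone Fgf21 was low throughout, at 0.0464 to 0.765 CPM at ZT10 and 1.76 to 6.04 CPM at ZT22 (log2 difference 2.88, adjusted p = 0.00772), and its adjusted p was 0.0598 without ZT22 library 2. Pdk4, which spares glucose by inhibiting pyruvate dehydrogenase, went the other way, from 14.3, 15.2 and 17.9 CPM to 6.68, 7.42 and 5.83 (log2 difference -1.25 ± 0.22, adjusted p = 0.00102). Between 4 and 6 members were called higher when 1 library was left out, the fewest without ZT10 library 1, ZT10 library 2 or ZT22 library 2.

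Of 21 genes of gluconeogenesis and fasting regulation, 4 rose and none fell (median 0.43). Pck1, the cytosolic PEP carboxykinase, read 1052, 854 and 1792 CPM at ZT10 and 3241, 5313 and 3523 at ZT22 (log2 difference 1.71 ± 0.38, adjusted p = 0.00887). Its adjusted p passed the threshold without ZT10 library 1 or 2, reaching 0.0544. Txnip, an inhibitor of glucose uptake, rose from 36.0 to 49.3 CPM to 113 to 138 CPM (1.51 log2, adjusted p = 0.00148), Slc37a4, the glucose-6-phosphate transporter, from 116 to 193 CPM to 281 to 298 CPM (0.91, adjusted p = 0.00353) and Creb3l3 (CREBH), a hepatic regulator of fasting metabolism, from 255 to 295 CPM to 425 to 460 CPM (0.71, adjusted p = 0.00167). Gm15441, also among the largest rises (2.30 log2, adjusted p = 0.00263), spans mm9 chr3:96359691-96370724 and encloses Txnip at chr3:96361880-96365780. The strand used in counting is not given in the sources used here, so their reads may not be told apart.

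Of 21 genes of glucose uptake, glycolysis and glycogen, 3 fell and 1 rose (median -0.29). Ppp1r3b, which targets phosphatase 1 to glycogen and favours its synthesis, read 520, 642 and 675 CPM at ZT10 and 288, 190 and 166 at ZT22 (log2 difference -1.51 ± 0.25, adjusted p = 0.000798). Its relative Ppp1r3c fell from 91.4 to 172 CPM to 26.8 to 48.6 CPM (by 1.70 log2, adjusted p = 0.0109). Glycogen synthase Gys2 rose from 110 to 126 CPM to 176 to 249 CPM (0.79 log2, adjusted p = 0.00291), so glycogen synthase and these phosphatase subunits moved in opposite directions. The Ppp1r3c call was lost without ZT10 library 1 or ZT22 library 2 (adjusted p up to 0.0622). Without ZT10 library 1, 1 member of the list remained called lower.

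Of 20 bile acid genes, 3 rose and 1 fell (median 0.06). Abcg5 and Abcg8, which together export cholesterol into bile, rose from 54.2 to 76.4 CPM to 121 to 130 CPM and from 63.5 to 84.8 CPM to 146 to 166 CPM (log2 differences 0.95 ± 0.16 and 1.10 ± 0.19, adjusted p = 0.000778 and 0.000952). Abcb4, which exports phospholipid, rose by 0.72 (adjusted p = 0.00238), and the FGF receptor gene Fgfr4 fell by 0.41 (adjusted p = 0.0255), a call lost without ZT10 library 1 or any 1 of the ZT22 libraries (up to 0.116). Of 23 xenobiotic genes, Por, the electron donor of microsomal P450 enzymes, rose from 321 to 483 CPM to 768 to 1323 CPM (log2 difference 1.27 ± 0.22, adjusted p = 0.00116). The only fall was Gsta3, a glutathione transferase (-0.78, adjusted p = 0.0485, lost without ZT10 library 1 or 3 or ZT22 library 2 or 3, up to 0.219). The called share of the xenobiotic list was near the 6.08% called over all genes.

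Of 22 endoplasmic reticulum genes, Calr, Pdia4, Pdia3, Dnajb11 and Pdia6 fell and Herpud1 rose (median -0.42). Calr, a calcium-binding chaperone, read 1031, 799 and 990 CPM at ZT10 and 402, 571 and 560 at ZT22 (log2 difference -0.88 ± 0.19, adjusted p = 0.00573). Without ZT22 library 1, 1 member of the list was still called lower; Pdia3 then had an adjusted p of 0.0605. Pdia4 had an adjusted p of up to 0.0946 without ZT10 library 1 or 3 or ZT22 library 1 or 2, and Herpud1 of up to 0.135 without ZT10 library 2 or ZT22 library 2. Of 17 heat shock genes, Fkbp4, an HSP90 co-chaperone, fell by 0.90 (adjusted p = 0.000778), and Hsp90aa1 fell by 0.82 (adjusted p = 0.0382), a call lost whichever library was left out (up to 0.138).

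Nutrient and growth signals gave mixed calls. Of 17 amino acid response genes, Trib3, a pseudokinase induced in fasting, rose from 2.28 to 3.56 CPM to 9.77 to 20.8 CPM (log2 difference 2.24 ± 0.38, adjusted p = 0.00102), while Atf4, the factor that induces it, fell from 118 to 122 CPM to 75.3 to 82.4 CPM (-0.63 ± 0.12, adjusted p = 0.00247). Sesn2 (1.46, adjusted p = 0.0307, groups overlapping) and the serine synthesis gene Psph (-0.73, adjusted p = 0.0240) were each called and lost without any of 4 libraries, namely ZT10 library 1 or 3, ZT22 library 1, and ZT22 library 2 for Sesn2 or 3 for Psph (up to 0.130 and 0.0945). Of 19 autophagy and lysosome genes, 3 rose and none fell. Gabarapl1, an ATG8 protein of the autophagosome, read 297, 284 and 330 CPM at ZT10 and 650, 686 and 645 at ZT22 (1.12 ± 0.14, adjusted p = 4.79e-05). Ulk1 (0.79, adjusted p = 0.0222) and Map1lc3b (0.74, adjusted p = 0.0446) were lost without ZT10 library 3, ZT22 library 2 or ZT22 library 3, Ulk1 also without ZT10 library 1 and Map1lc3b without ZT10 library 2 (up to 0.101 and 0.228).

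Of 18 cell cycle genes tested, Cdk1, Ccne1, Mki67 and Wee1 rose and Cdkn1a fell (median 0.13). Cdkn1a (p21), an inhibitor of cyclin-dependent kinases, read 46.0, 30.4 and 68.5 CPM at ZT10 and 2.96, 15.1 and 3.65 at ZT22 (log2 difference -2.79 ± 0.62, adjusted p = 0.0116). Its adjusted p rose to as much as 0.0590 without ZT22 library 1 or 3. Cdk1 read 0.357 to 0.762 CPM at ZT10 and 0.762 to 3.78 CPM at ZT22 (1.96, adjusted p = 0.0196), Ccne1 0.254 to 0.612 and 0.931 to 2.77 CPM (1.95, adjusted p = 0.0339) and the proliferation marker Mki67 1.02 to 2.04 and 1.78 to 5.09 CPM (1.43, adjusted p = 0.0422). The number called higher ranged from 1 to 7 when 1 library was left out, the fewest without ZT10 library 1, ZT22 library 2 or ZT22 library 3. These 3 calls were lost without any of those libraries, that of Mki67 also without ZT10 library 3 and that of Ccne1 also without ZT10 library 2 or 3 (adjusted p up to 0.114 for Cdk1, 0.196 for Ccne1 and 0.167 for Mki67).

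Several lists gave 1 call or none. At the 6.08% called over all genes, the smaller of these lists would also hold few calls or none. No gene was called of 38 nuclear oxidative phosphorylation genes (median -0.12), 31 proteasome genes (-0.12), 28 ribosome biogenesis genes (0.07), 19 acute-phase proteins (-0.09), 11 heme genes (-0.19) or the pair of cold-inducible RNA-binding genes (-0.09). The smallest p in each belonged to Uqcrb (-0.43, adjusted p = 0.340), Psmd14 (-0.41, 0.0726), Pes1 (0.32, 0.0554), Saa1 (-1.52, 0.466), Alad (-0.55, 0.0748) and Rbm3 (-0.61, 0.160). Saa1 ranged from 54.4 to 600 CPM within ZT10 alone. Alad was called when ZT10 library 2 or ZT22 library 3 was left out, with an adjusted p as low as 0.0454. All 53 ribosomal protein genes had a log2 difference below 0, from -0.93 to -0.02 with a median of -0.21. Without ZT10 library 1 the median was -0.01 with 28 of 53 below 0, and with a covariate for the slope on transcript length it was -0.08 with 39 below 0. Of the 53, 1 was called, Rpl27, lower by 0.63 (adjusted p = 0.0356, lost without any 1 library except ZT10 library 3, up to 0.123).

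Except in the urea cycle and amino acid list, single calls stood in further lists, a share near the 6.08% called over all genes. Such single calls describe genes and not lists. Chka, choline kinase, was the only 1 of 19 lipoprotein and lipid export genes called, at 89.5, 91.7 and 78.3 CPM at ZT10 and 10.6, 23.6 and 13.5 at ZT22 (log2 difference -2.45 ± 0.22, adjusted p = 1.20e-06). Elovl3, a fatty acid elongase and the only called member of 14 growth hormone and STAT5 genes, fell from 187 to 402 CPM to 25.7 to 58.5 CPM (-2.72 ± 0.63, adjusted p = 0.0155; lost without ZT10 library 2 or ZT22 library 1 or 2, up to 0.0748). Of 20 urea cycle and amino acid genes, 3 were called, a share above the 6.08%. Tdo2 (0.58, adjusted p = 0.0259) and Arg1 (0.61, 0.0401) were called higher and Nags (-0.37, 0.0467) lower. These 3, Nadsyn1 (0.74, 0.0363), Klf10 (1.54, 0.0456) and Stat2 (-0.79, 0.0176) each lost their call without any of 3 to 6 single libraries, ZT22 library 2 among them for every 1 of the 6, with adjusted p up to 0.251.

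**Figure D3:**
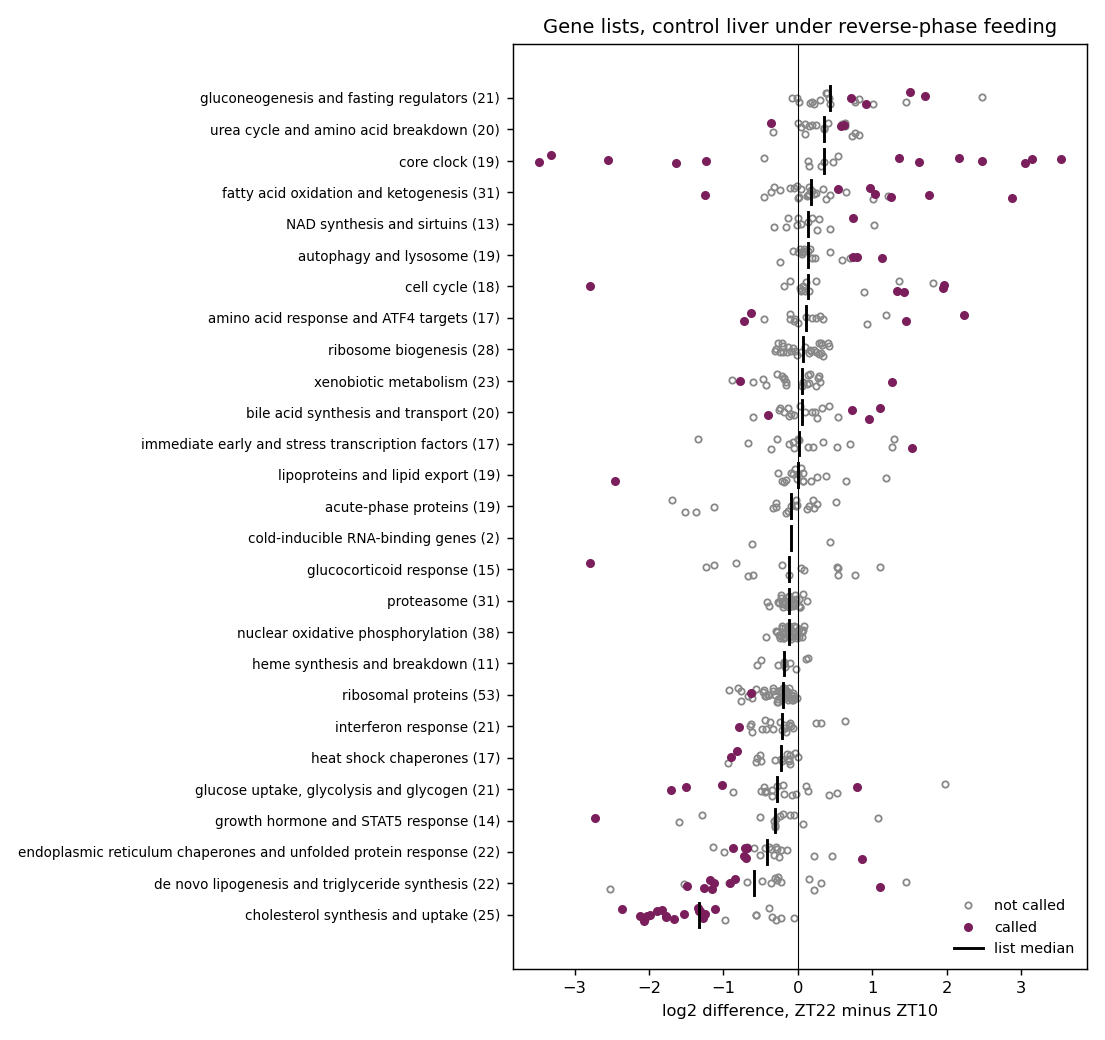
Log2 difference between ZT22 and ZT10 (horizontal axis) of each tested member of the 27 pathway lists, with called members filled and a bar at each list's median; the number tested stands in brackets. The cholesterol list sits to the left of 0 with a median of -1.33, the clock list spreads to both sides from -3.48 to 3.54, the respiratory and proteasome lists lie close to 0, and the ribosomal list lies below it with a median of -0.21 (-0.01 without ZT10 library 1).

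The largest falls outside these lists included both retinoic acid hydroxylases of the liver. Cyp26b1 read 23.6, 13.2 and 22.6 CPM at ZT10 and 0.804, 1.02 and 2.08 at ZT22 (log2 difference -3.90 ± 0.77, edgeR adjusted p = 0.00464), and Cyp26a1 103, 25.9 and 48.7 and then 9.69, 1.82 and 3.01 (-3.56 ± 0.65, adjusted p = 0.00267). Tubb2a, a beta-tubulin, fell from 195 to 212 CPM to 25.1 to 42.8 CPM (-2.62 ± 0.23, adjusted p = 8.65e-07). Pitx3 (-2.90, adjusted p = 0.00664), a homeobox factor, and Chrna4 (-2.71, 0.0126), a nicotinic receptor subunit, were below 12 CPM in all 6 libraries. Chrna4 had an adjusted p of up to 0.0514 without ZT22 library 2 or 3.

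Rgs16, a regulator of G-protein signalling, had the largest rise of the genes at a mean log2 CPM of at least 1. It read 2.75, 1.44 and 15.6 CPM at ZT10 and 155, 118 and 112 at ZT22 (log2 difference 4.29 ± 0.96, adjusted p = 0.0125). ZT10 library 3 stood above the other two, and without ZT10 library 1 or 2 the adjusted p rose to at most 0.0644. Slc25a47, a mitochondrial carrier of hepatocytes, rose from 144 to 293 CPM to 869 to 1254 CPM (2.19 ± 0.27, adjusted p = 5.07e-05), and Slc2a5, the fructose transporter, from 1.27 to 2.69 CPM to 7.78 to 12.1 CPM (2.39 ± 0.41, adjusted p = 0.00115). Maff (2.26, 0.00148), a small MAF factor, Krt23 (2.21, 0.00281), a keratin, and 2010003K11Rik (2.33, 5.07e-05) completed this set.

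The same pair of times was then read under ad libitum feeding, where 1438 of 13157 genes were called (10.9%), 644 higher (4.89%) and 794 lower (6.03%) at ZT22. The direction was opposite for nearly all genes called under both schedules. Of 13066 genes tested in both, 818 were called under reverse-phase and 1436 under ad libitum feeding, and 417 were called in both, which is 51.0% of the former and 29.0% of the latter. Of these, 416 moved in opposite directions. The exception was Tnxb, a matrix protein, lower at ZT22 under both schedules (-1.0 and -1.10 log2). It was singled out after its values were seen. The 818 calls came from the fit of reverse-phase controls alone, and the 1436 from a joint fit of both schedules. These fits can differ in power, so the counts and overlap percentages cannot be compared directly between schedules. In a test of the difference between schedules, 2254 genes were called (17.1%), 1259 with a higher (9.57%) and 995 with a lower difference (7.56%) under reverse-phase feeding. Among them were 725 of the 818. The test contains the reverse-phase difference by which the 818 were chosen, so this overlap is partly built in. The tables of the schedules came from separate sets of libraries of different depth (4750674 to 7098106 counts in the 6 ad libitum libraries), so feeding and other differences between the sets cannot be told apart. In ad libitum ZT22 library 2, Rn45s took 12.3% of counts; without it 864 genes were called under ad libitum feeding and 2005 in the difference. Without all libraries numbered 2 or 3, 620 and 356 genes were called ad libitum, and 1444 and 1022 in the difference.

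All 12 clock genes called under reverse-phase feeding had a log2 difference of the opposite sign ad libitum, and the schedules differed for 16 of the 19. Arntl read 1.48, 1.2 and 1.83 CPM at ZT10 ad libitum and 34.8, 49.7 and 41.2 at ZT22 (log2 difference 4.77), against a fall by 3.32 under reverse-phase feeding. Dbp read 133, 138 and 166 CPM at ZT10 and 3.52, 2.31 and 2.14 at ZT22 ad libitum. The ad libitum difference was the larger in size for 14 of the 19 genes. Npas2 rested on 2 counts over the 3 ad libitum ZT10 libraries and 180 at ZT22, a ratio of 95.4 (95% exact binomial interval of 26.0 to 794, counting error only). Clock, not called under reverse-phase feeding, rose ad libitum from 17.9 to 23.9 CPM to 79.6 to 93.1 CPM, and the difference between schedules was -2.44 ± 0.29 (edgeR adjusted p = 6.47e-08). Rora, Per2 and Bhlhe40 were not called in that test (adjusted p = 0.271, 0.0984 and 0.658).

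The cholesterol and fatty acid oxidation lists also differed between the schedules. Of 25 cholesterol genes, 17 fell under reverse-phase feeding and 10 rose ad libitum (2 without replicate 2 or 3), with list medians of -1.33 and 0.52. The counts of 17 and 10 came from the different fits named above. Of the 25, 20 were called lower in the difference between schedules (15 to 20 when a replicate number was left out), where the median over all genes was -0.02. Of 31 fatty acid oxidation genes, 13 were called higher in the difference (5 without replicate 2) and Pdk4 lower. Pdk4 ran against its list under both schedules, at 0.825 to 3.31 CPM at ZT10 and 12.4 to 24.2 at ZT22 ad libitum. Cdkn1a showed the same turn, from 0.903 to 1.99 CPM to 34.0 to 61.4 CPM ad libitum (difference between schedules -7.86 ± 0.95, adjusted p = 1.71e-07). Endothelial markers turned as well: 10 of 16 were called lower in the difference, and their sum rose from 184 to 240 CPM at ZT10 to 303 to 361 CPM at ZT22 ad libitum, without overlap. The part of this shift in the other differences was not tested.

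**Figure D4:**
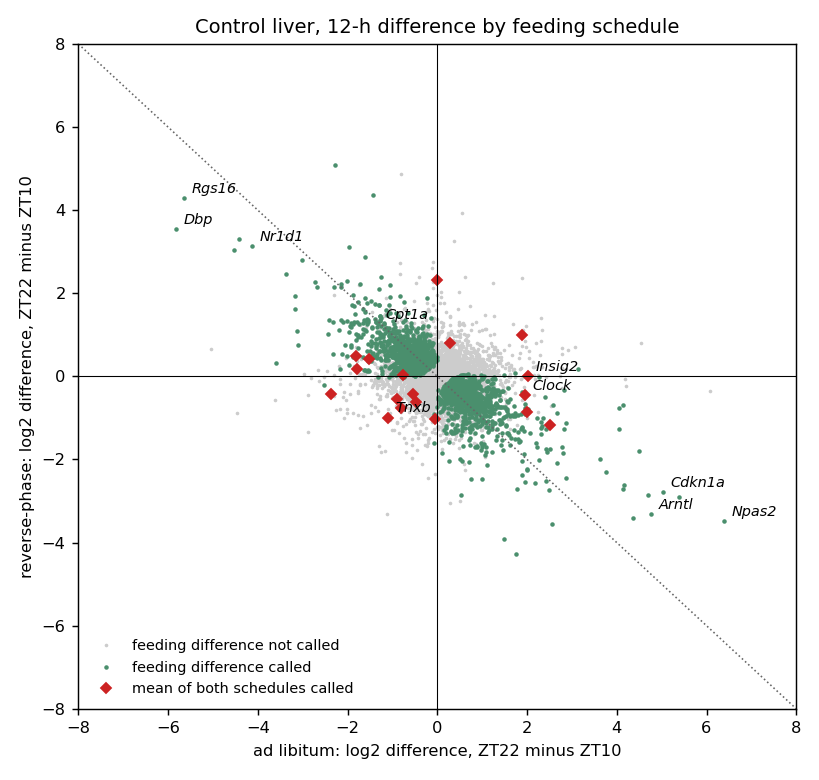
Log2 difference between ZT22 and ZT10 in controls under reverse-phase feeding (vertical axis) against ad libitum feeding (horizontal axis), 1 point per gene; green marks genes whose differences differ between schedules and red diamonds the 18 genes called in the mean of both. The dotted line marks equal and opposite differences. Green genes were chosen by the difference between schedules, which favours opposite signs, so their position is partly built in and was not counted. Arntl and Npas2 stand at the lower right and Dbp and Rgs16 at the upper left.

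The mean of the schedules' differences, a contrast added after the data were seen, gives the average difference between these clock times. Unequal differences of opposite sign can also yield a call in it. Only 18 of 13157 genes were called (0.137%), 7 higher (0.0532%) and 11 lower (0.0836%), with 1479 genes at an unadjusted p under 0.05. Insig2, which retains SREBP in the endoplasmic reticulum, led the list with 1.01 ± 0.16 (edgeR adjusted p = 0.00170). It read 201 to 238 CPM at ZT10 and 148 to 341 at ZT22 under reverse-phase feeding (log2 difference 0.01), so its mean came from the ad libitum rise of 2.03. Of the 18 genes, 10 had the same sign under both schedules, Tnxb, Podn, Cygb and Acmsd among them, as well as Insig2 with its value of 0.01. The count was 0 without replicate 3, 2 without replicate 2 and 3 without ad libitum ZT22 library 2, and DESeq2 called 102.

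In the reverse-phase libraries labelled knockout, 1524 of 13842 genes were called between the same times (11%), 779 higher (5.63%) and 745 lower (5.38%) at ZT22. The count was 618 without replicate 1 and 582 without replicate 3. Nr1d1 and Nr1d2 were counted at 41.6 to 154 CPM and 52.4 to 97.0 CPM there, and since these counts cover the whole transcript they do not check the deletion. Of the 822 genes called in controls, 395 (48.1%) were also called in knockouts, 393 of them in the same direction. The 2 that reversed, Clpx and Rnf144a, were singled out after their values were seen. The 822 calls came from the fit of reverse-phase controls alone, and the 1524 from a joint fit of both genotypes. The counts and the overlap percentage thus rest on fits that can differ in power. The genotypes differed for 55 genes (0.397%), 13 with a higher (0.0939%) and 42 with a lower difference (0.303%) in controls, and 41 of them were among the 822. The control difference by which the 822 were chosen enters this test, so that overlap is partly built in. The count of 55 was 36 without replicate 2 and 12 without replicate 3, and 41 without knockout ZT10 library 3 alone.

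Of the 19 clock genes, 7 were called in the genotype difference. Arntl was flat in the knockout, at 33.2 to 38.3 CPM at ZT10 and 32.1 to 39.4 at ZT22 (log2 difference 0.04), and the genotype difference was -3.36 ± 0.35 (edgeR adjusted p = 4.10e-08). Npas2, Cry1 and Nfil3 had log2 differences of -0.11, -0.20 and 0.37 in the knockout against -3.48, -2.56 and -1.64 in controls (adjusted p of the difference = 3.78e-07, 6.40e-06 and 1.53e-05). Dbp, Tef, Bhlhe41 and Ciart were called higher at ZT22 in the knockout too, with genotype differences that were not called (adjusted p = 0.375, 0.418, 0.905 and 0.686). Of 8 clock genes called higher in the knockout, 1 was called without replicate 3. The Nr1d1 difference was lost without replicate 2 or 3 (adjusted p up to 0.507).

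Clpx, the unfoldase subunit of a mitochondrial protease, had the smallest p of the genotype comparison. It read 382, 409 and 417 CPM at ZT10 and 116, 148 and 95.1 at ZT22 in controls, and 384, 429 and 298 and then 614, 675 and 650 in knockouts, a difference of -2.56 ± 0.20 (edgeR adjusted p = 5.39e-11). At ZT10 the genotypes overlapped, and at ZT22 every knockout library stood above every control. Lgalsl (-2.02, 3.50e-08), a galectin-related gene, Chka (-2.24, 1.63e-06), Loxl4 (-2.68, 2.42e-05), a lysyl oxidase family gene, and Asap2 (-2.14, 0.000103), an ARF GTPase-activating gene, fell in controls and were not called in knockouts. Of these, Loxl4 stood apart in level, at 0.694 to 9.71 CPM in the 6 control and 87.8 to 133 CPM in the 6 knockout libraries. The difference of Asap2 lost its call without replicate 3 (adjusted p up to 0.0690). Lgals4 and Lgals6, near-identical galectin copies that may share reads, rose in both genotypes, by 0.68 and 0.70 in controls and by 2.28 and 2.30 in knockouts.

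No member of the cholesterol, lipogenesis, fatty acid oxidation or gluconeogenesis lists was called in the genotype difference. Over all genes 0.397% were called in it, so lists of this size would hold few calls or none at that share. In the knockout, 17 of 25 cholesterol genes were again called lower (10 without replicate 1), with a list median of -1.47 against -1.33 in controls, as were 7 of 22 lipogenic genes (4 without replicate 1). A p that misses the threshold does not show that the genotypes were alike. Heat shock and endoplasmic reticulum chaperones had 11 of 17 and 14 of 22 called lower in the knockout, against 2 and 5 in controls. At the fewest, 4 of 17 and 7 of 22 were called lower in the knockout when a replicate number was left out. None was called in the genotype difference, where the share over all genes was the same 0.397%. The knockout and control counts of these lists came from the different fits named above.

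**Figure D5:**
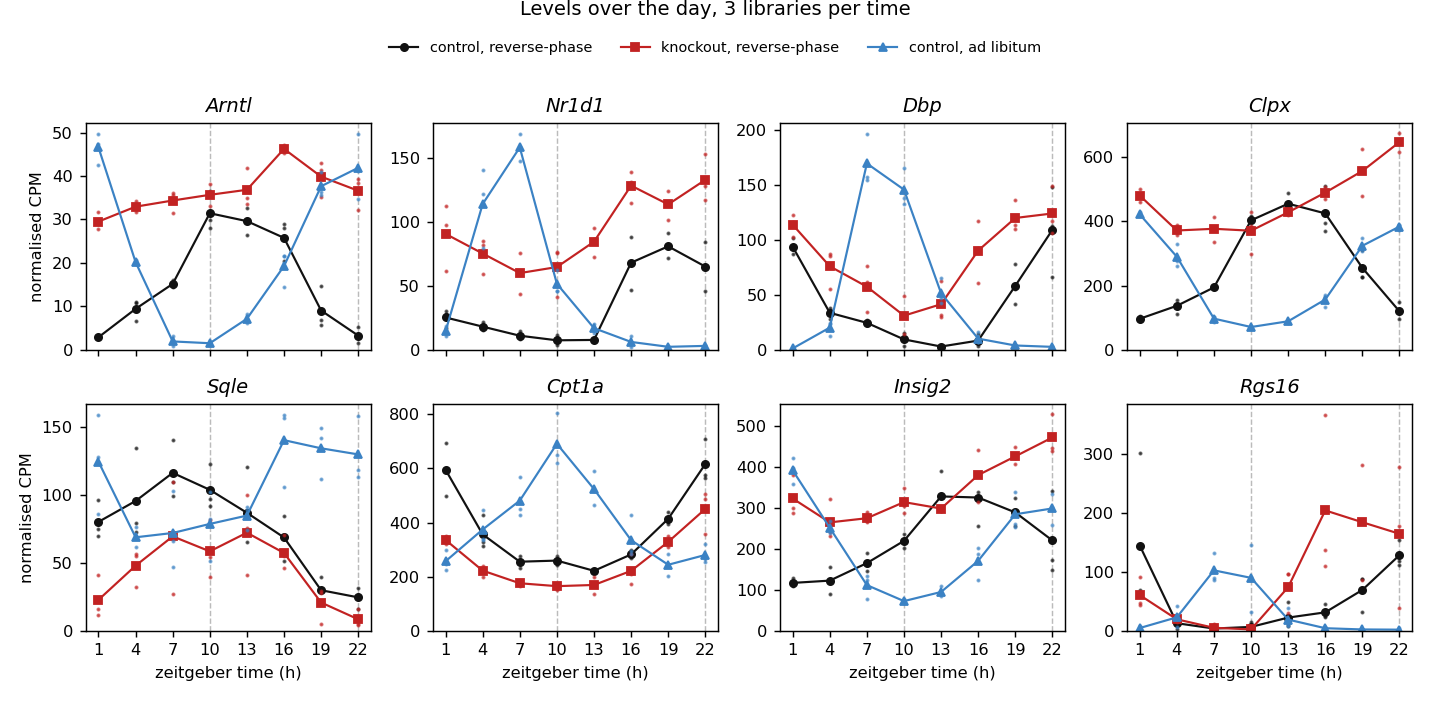
Normalised CPM over zeitgeber time (h) of 8 genes, with lines through the means of 3 libraries and small points for each library: controls under reverse-phase feeding (black circles), knockouts under reverse-phase feeding (red squares) and controls ad libitum (blue triangles), with dashed lines at ZT10 and ZT22. Arntl and Clpx fall between the dashed lines in black and not in red, the black and red lines of Sqle fall and those of Cpt1a and Rgs16 rise, and the blue lines of these genes run the other way.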

How the data were processed

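RNA from whole liver was sequenced. The deposited values are estimated counts per transcript made by the authors, unnormalised, in 1 table per feeding schedule, with 34600 transcripts of 24421 gene symbols each; 31.9% of the reverse-phase values are not whole, and every one is a multiple of 0.5. STAR and HOMER and the mouse build mm9 are named per the submitters' processing notes, without versions; strand and mapping rules are not given in those notes. The transcript with the highest mean share of a library's counts, over the liver libraries of both schedules, was kept per gene. Its values were rounded to whole numbers. Reads of 413 symbols with several genomic copies may be split.

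The 24 reverse-phase control libraries were fitted by group with edgeR 4.0.16 (R 4.3.3, TMM scaling, its filter on low counts, quasi-likelihood test), and ZT22 was compared with ZT10. A joint fit of both schedules and another of both genotypes (48 libraries each) gave the differences. The same joint fits gave the ad libitum and the knockout calls. P-values were adjusted by Benjamini-Hochberg over all genes tested, and the threshold was 0.05. The test was tried on simulated counts. A library's depth, 14151172 counts or more, limits the precision of genes near 1 CPM. CPM values are scaled by TMM. Alternatives were DESeq2 1.42.0, its size factors, other filters, the longest transcript, fewer or more libraries, a length covariate, a replicate block and leaving out libraries; the length covariate and the fit without ad libitum ZT22 library 2 or knockout ZT10 library 3, like the mean of both schedules, were added after seeing the data.

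Genes were named by rule: every clock gene; from other lists the 4 called members with the largest change, or the member with the smallest p; the 12 largest changes each way above a mean log2 CPM of 1; and for the differences 2 members per list and the 8 smallest p. Further members complete a count, and a few genes that enter the counts are not reported here by name. The comparison, its members and lists were chosen with earlier results of these data known. Promoters came from RefSeq on GRCm38.p6 by symbol, with no coordinates carried between builds. Reverse-phase control replicates with the same number did not vary together between the times (correlations across genes of -0.220, -0.0407 and -0.0291), so they were not paired, and no library pair agreed within sampling noise.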

Additional observations from a re-analysis of the deposited data

Results flagged for a closer look

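Each gene here passed a test of the difference between schedules or between genotypes (edgeR's quasi-likelihood test, adjusted over all genes). Values are differences between log2 differences of ZT22 against ZT10. Reverse-phase minus ad libitum feeding, the values were lower for Npas2 (-9.88), Arntl (-8.12), Tubb2a (-6.80), Chka (-5.35), Cry1 (-4.75), Ppard (-4.67), Lgalsl (-4.28), Clpx (-4.19), Asap2 (-3.84), Ddc (-3.42), Nfil3 (-3.28) and Clock (-2.44). They were higher for Dbp (9.35), Ciart (7.57), Nr1d1 (7.25), Nr1d2 (5.82), Per3 (4.77), Bhlhe41 (4.30), Tef (3.47), Per1 (1.97), Cry2 (1.18) and Hlf (0.83). The Npas2 value rests on 2 counts at ad libitum ZT10 and depends on the prior count. The Per1 difference lost its call without any 1 replicate number (adjusted p up to 0.139) and that of Hlf without number 1 or 3 (up to 0.263).

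Control minus knockout under reverse-phase feeding, the values were lower for Npas2 (-3.37), Arntl (-3.36), Loxl4 (-2.68), Clpx (-2.56), Cry1 (-2.35), Chka (-2.24), Asap2 (-2.14), Nfil3 (-2.02), Lgalsl (-2.02), Lgals6 (-1.60) and Lgals4 (-1.60). They were higher for Nr1d1 (2.10) and Nr1d2 (2.01), the genes deleted in the knockout. Nr1d1 lost its call without replicate number 2 or 3 (adjusted p up to 0.507) and Asap2 without number 3 (up to 0.0690).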

How the results depend on the processing

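Among reverse-phase controls, the count of 822 called genes was 219 with the 6 libraries alone, 1697 with the length covariate and 517 to 635 without 1 library; DESeq2's size factors, DESeq2, other filters, the longest transcript, 48 libraries and the block kept it within 1.5 times (628 to 1124). Ad libitum, 1438 became 864 without ZT22 library 2 and 356 to 1075 without a replicate number. The difference between schedules, 2254, became 1022 to 1720 without a number. In knockouts, 1524 became 2413 with the length covariate and 582 to 1128 without a number. The genotype difference, 55, became 136 with DESeq2, 156 with the length covariate and 12 to 48 without a number. The mean of the schedules, 18, became 102 with DESeq2, 83 with the length covariate, 3 without ad libitum ZT22 library 2 and 0 to 15 without a number. The cause of these changes was not tested. Where libraries were left out, the smaller number of libraries and which of them were dropped cannot be told apart.

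A replicate block gave 856 genes in reverse-phase controls, 1511 ad libitum, 2317 for the difference between schedules, 1548 in knockouts, 57 for the genotype difference and 28 for the mean of the schedules; same-numbered reverse-phase control libraries did not vary together between the times, the others were not checked, and the numbers are read as names only. Of 77 called genes followed in reverse-phase controls, 38 kept their call under all 15 alternatives, 39 lost it under at least 1, and none changed direction. With 3 libraries per time, small differences can be missed. The 6 ad libitum libraries held 4750674 to 7098106 counts, which limits low genes such as Npas2 most.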

Other observations

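Among the 18 genes called in the mean of both schedules, a contrast added after the data were seen, several had a negative value under each schedule, of which only Tnxb was itself called under both. Tnxb and Podn, matrix proteins, differed by -1.0 and -0.76 log2 under reverse-phase feeding and by -1.10 and -0.82 ad libitum, and Cygb, a globin of stellate cells, by -0.53 and -0.91. Akr1c6, a hydroxysteroid dehydrogenase, differed by -0.62 and -0.48. Acmsd, which diverts tryptophan breakdown away from NAD synthesis, had values of 1.0 and 1.89. St5 was called in the mean from opposite values, -1.18 and 2.51. With edgeR's test, none of the 18 was called when replicate number 3 was left out.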
